A study of Mus musculus with 6 samples.

Results

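The cytochrome P450 family 4 (Cyp4) enzymes described here are the fatty acid omega-hydroxylases of the mouse liver, chosen by gene symbol as 10 of the 17460 genes listed. They comprise 6 Cyp4a genes (Cyp4a10, Cyp4a12a, Cyp4a12b, Cyp4a14, Cyp4a31 and Cyp4a32), 3 Cyp4f genes (Cyp4f13, Cyp4f14 and Cyp4f15) and Cyp4v3. PolyA-selected RNA was sequenced from whole livers of 6 C57BL/6 mice aged 9 months, 3 control and 3 Blnc1 LKO (liver-specific knockout of the long noncoding RNA Blnc1). All of these mice were fed a NASH diet, rich in fructose, trans fat and cholesterol and used to cause steatohepatitis, for 24 weeks. According to the methods of the study, LKO mice were Cas9 transgenic animals that received an adenovirus carrying Blnc1 sgRNAs through the tail vein, and control mice were Cas9 transgenic animals that received a control virus. Such a knockout edits the cells that the virus reaches and leaves other liver cells with intact alleles. The comparison asks which of the omega-hydroxylases differ in RNA level between the diet-fed livers with and without this deletion. Because whole liver was sequenced, fewer cells of a type and less RNA per cell cannot be told apart.

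Omega-hydroxylases add a hydroxyl group at or next to the methyl end of a fatty acid, taking electrons from P450 oxidoreductase. Alcohol and aldehyde dehydrogenases then turn the product into a dicarboxylic acid, which is shortened in peroxisomes. Cyp4a10 and Cyp4a14 are classical target genes of PPARα, the nuclear receptor that responds to fatty acids, and they act on medium-chain and long-chain fatty acids. Cyp4a12a is a male-predominant arachidonic acid omega-hydroxylase that forms 20-HETE, a vasoactive lipid. Cyp4f enzymes inactivate leukotriene B4 and other eicosanoids, and Cyp4v3 is the mouse counterpart of human CYP4V2, the gene mutated in Bietti crystalline dystrophy.

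The genes lie in 3 places of the genome (GRCm38, GENCODE release M21). On chromosome 4 the Cyp4a genes follow each other in the order Cyp4a12a (115299046 to 115332815), Cyp4a12b (115411624 to 115439034), Cyp4a14 (115486200 to 115496142), Cyp4a10 (115518264 to 115533649), Cyp4a31 (115563649 to 115579015) and Cyp4a32 (115600969 to 115621602). Cyp4a14 is on the - strand and the other 5 are on the + strand. On chromosome 17, Cyp4f15 (32685627 to 32703352, + strand) is followed by Cyp4f14 (32905070 to 32917342) and Cyp4f13 (32924688 to 32947402), both on the - strand. Cyp4v3 stands alone on the - strand of chromosome 8 (45304944 to 45333216), where its exons overlap those of the annotated gene Gm45753.

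Every member carries the haem-binding segment that defines a P450, in which a cysteine holds the haem iron. The 30 coding bases around that codon are shown because they show how the members group, with the cysteine codon in capitals. Each run crosses an exon junction and is read 5′ to 3′ from the GENCODE M21 transcript.
Cyp4a12a and Cyp4a12b (exons 11 and 12): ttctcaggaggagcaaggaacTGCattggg
Cyp4a10, Cyp4a31 and Cyp4a32 (exons 11 and 12): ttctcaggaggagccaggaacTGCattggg
Cyp4a14 (exons 11 and 12): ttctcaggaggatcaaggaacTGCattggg
Cyp4f13 (exons 12 and 13): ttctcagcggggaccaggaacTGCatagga
Cyp4f14 (exons 11 and 12): ttctcggcgggacccaggaacTGCatagga
Cyp4f15 (exons 12 and 13): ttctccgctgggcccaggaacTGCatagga
Cyp4v3 (exons 10 and 11): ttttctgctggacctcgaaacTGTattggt
The Cyp4a12 pair shared the same 30 bases, and so did Cyp4a10, Cyp4a31 and Cyp4a32. Over the whole coding sequence, Cyp4a12a and Cyp4a12b were 98.5% identical, Cyp4a10 was 97.2% identical to Cyp4a32 and 96.6% identical to Cyp4a31, and Cyp4a31 was 96.0% identical to Cyp4a32. Cyp4a14 was 75.1% to 76.1% identical to the other Cyp4a genes. The 3 Cyp4f genes were 74.8% to 80.0% identical to each other, and Cyp4v3 was 51.1% to 53.0% identical to the other members.

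The likeness of these genes bears on how their reads could be counted. Of all 50-base windows of the transcript, 48.9% in Cyp4a12a and 49.4% in Cyp4a12b occurred also in the other gene. A read of up to 50 bases that falls there cannot be given to either gene by its sequence alone. The share was 46.8% in Cyp4a32, 30.5% in Cyp4a10 and 21.8% in Cyp4a31 (there with over 10 genes), against 0.245% in Cyp4a14 and 2.45% to 2.72% in the Cyp4f genes. Windows of 100 bases gave lower shares, and the read length is not given in the sources used here. These were 35.8% in Cyp4a12a, 36.2% in Cyp4a12b, 20.1% in Cyp4a32, 12.7% in Cyp4a10, 8.22% in Cyp4a31 and 0% in Cyp4a14 and the Cyp4f genes. In Cyp4v3, 7.02% of the 50-base windows and 5.77% of the 100-base windows were shared with Gm45753. The levels of the near-identical genes are therefore uncertain, and sums over them are given beside each gene. The stretch of exon 6 shown next, on the + strand, is 1 of those that tell the Cyp4a12 pair apart, with the 4 differing bases in capitals.
Cyp4a12a, chr4:115326645-115326704: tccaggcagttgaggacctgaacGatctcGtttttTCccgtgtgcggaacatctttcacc
Cyp4a12b, chr4:115432898-115432957: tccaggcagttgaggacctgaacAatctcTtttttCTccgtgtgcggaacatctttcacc

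Each value is the read count of a gene after division by the size factor of its liver, called normalised reads here. They carry no correction for gene length. The livers held 65384969 to 89350181 reads on listed genes, and the member with the fewest reads, Cyp4a31, had at least 433 in every liver. Counting error was not small beside the spread between livers in every member. In Cyp4a32 the control livers (1891 ± 42.5, SD, n = 3, at least 1745 reads) varied about as little as counting error alone allows. Over 14809 to 15037 genes, livers of 1 group differed by more than counting noise (chi-square per degree of freedom 20.8 to 70.0). Each liver was counted as 1 replicate. The labels do not say how the mice were housed or bred, so p-values measure the spread between these livers. The table has no row named Blnc1. The study describes Paqr9 as the neighbouring gene and reports that the sgRNA virus left its mRNA unchanged. Paqr9 had 16950, 18810 and 15156 normalised reads in control livers and 18268, 15663 and 20027 in LKO livers (log2 fold change 0.08, SE 0.11). Whether any reads of Blnc1 are counted in the Paqr9 row is not known, so the deletion could not be checked here. The study itself reports lower Blnc1 by qPCR in liver, and more so in isolated hepatocytes, after the sgRNA virus. Hepatocyte markers (10 genes, with Alb the largest part) summed to 5901809 to 6496867 normalised reads in control livers and 5749040 to 6911606 in LKO livers, and the groups overlapped. The labels used here give no sex, and since Cyp4a12a is male-predominant it was read from the data. Each liver had 12114 to 17443 reads on 4 Y-chromosome genes and 8 to 22 reads on Xist, the pattern of male tissue.

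The 2 groups were compared by a limma fit to log2(value + 1). It covered the 17297 genes that reached a value of 1 in 3 or more livers, and p-values were adjusted over all of these by the Benjamini-Hochberg method. Log2 fold changes are on this scale, as Blnc1 LKO minus control, with a standard error (SE). All 10 members were tested, and no member had an adjusted p under 0.05. Of the whole set of genes 1 did (0.00578%). The members' fold changes were all above 0, with a median of 0.26 on the log2 scale, where 8582 of the genes tested were higher and 8715 lower with a median of 0.00. In 3 members (Cyp4a12a, Cyp4a12b and Cyp4a32) every LKO liver lay above every control liver, as 5.35% of all genes did. No member had every LKO liver below the controls, as 5.28% of all genes did. The same 3 members had an unadjusted limma p under 0.05 with higher values in LKO livers, a mark that 2.94% of all genes reached. DESeq2 on the recovered reads called 45 genes higher in LKO livers at an adjusted p under 0.05 (0.288% of the 15617 genes it adjusted), and edgeR called 2 genes in either direction (0.0116%), with no member among them. The count of members without overlap turned on single livers. It was 6 without LKO replicate 2, with Cyp4f13, Cyp4f14 and Cyp4v3 added, where 14.7% of all genes lay above the controls in this way. It was 5 without control replicate 2, with Cyp4f13 and Cyp4f14 added, where 9.65% of all genes did.

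**Figure D1:**
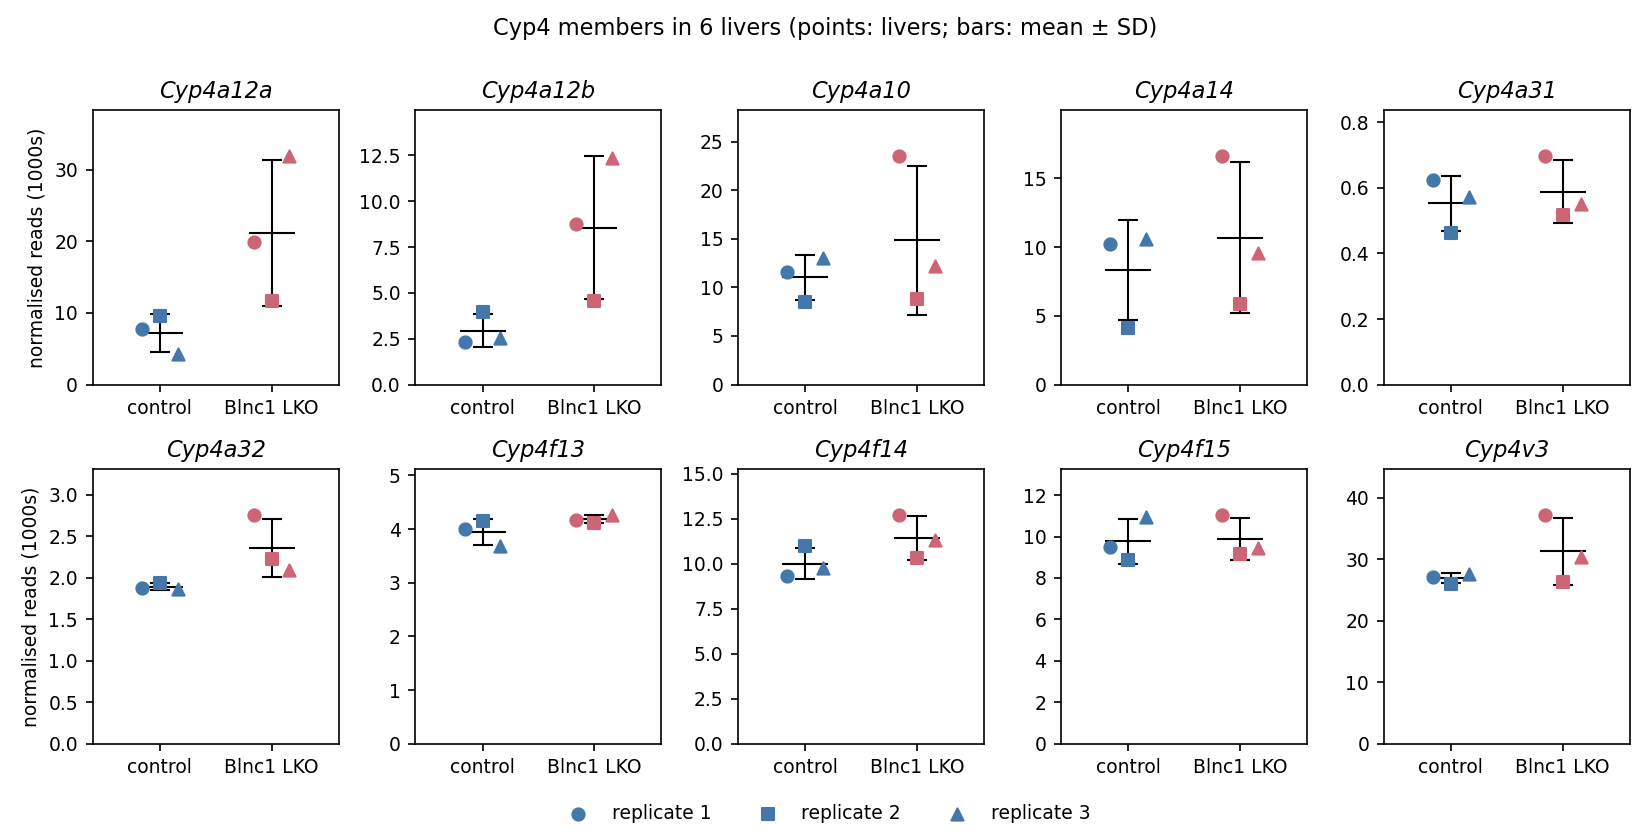
Normalised reads (in units of 1000, linear axes from 0, 1 scale per panel) of the 10 Cyp4 members in control livers (blue) and Blnc1 LKO livers (red). Points are livers, with the shape giving the replicate number, and bars are the mean ± SD (n = 3). The groups are apart in Cyp4a12a, Cyp4a12b and Cyp4a32 and overlap in the other 7 panels.

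Cyp4a12a and Cyp4a12b had the largest differences of the 10 members. Cyp4a12a, the 20-HETE-forming enzyme of male mice, had 7720, 9533 and 4316 normalised reads in control livers and 19873, 11601 and 31905 in LKO livers. The lowest LKO liver, replicate 2, stood just above the highest control liver, also replicate 2, and LKO replicate 3 stood far above all others. The means were 7190 ± 2649 (SD, n = 3) and 21126 ± 10210 (SD, n = 3), a ratio of 2.94. The log2 fold change was 1.51 (SE 0.37, unadjusted 95% interval 0.66 to 2.37), and it did not pass adjustment over all genes (adjusted p = 0.577, limma; 0.201, DESeq2; 0.551, edgeR).

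Cyp4a12b, its near-identical neighbour, had 2311, 3975 and 2540 normalised reads in control livers and 8777, 4562 and 12357 in LKO livers. The order of the LKO livers was that of Cyp4a12a, with replicate 3 highest and replicate 2 close to the controls. The means were 2942 ± 902 and 8565 ± 3902 (SD, n = 3), a ratio of 2.91. The log2 fold change of 1.47 (SE 0.34, interval 0.70 to 2.23) did not pass either (adjusted p = 0.548, limma; 0.0978, DESeq2; 0.543, edgeR). Leaving out each liver in turn kept the fold change between 1.15 and 1.88 for Cyp4a12a and between 1.15 and 1.87 for Cyp4a12b.

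Since reads of this pair may be split between the genes, the 2 values were summed. The sum was 10031, 13508 and 6856 in control livers and 28650, 16162 and 44262 in LKO livers, a ratio of means of 2.93. A fit with the pair as 1 feature gave a log2 fold change of 1.49 (SE 0.35, adjusted p = 0.549, limma). Cyp4a12b took 23.0%, 29.4% and 37.1% of the sum in control livers and 30.6%, 28.2% and 27.9% in LKO livers, so the share overlapped between the groups and varied more among the controls.

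Cyp4a10 and Cyp4a14, the classical PPARα targets of the cluster, varied between livers of the same group by more than the groups differed. Cyp4a10 had 11565, 8461 and 13056 normalised reads in control livers and 23522, 8829 and 12165 in LKO livers. A single LKO liver, replicate 1, was above the control range. The means were 11028 ± 2344 and 14839 ± 7703 (SD, n = 3), with a log2 fold change of 0.33 (SE 0.32, interval -0.39 to 1.05, adjusted p = 0.973, limma). Without LKO replicate 1 the fold change was -0.066.

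Within each group Cyp4a14 followed the same order of livers. It had 10255, 4122 and 10576 normalised reads in control livers and 16618, 5852 and 9597 in LKO livers. Replicate 2 was the lowest liver in both groups, and LKO replicate 1 was again the only liver above the control range. The means of 8318 ± 3637 and 10689 ± 5466 (SD, n = 3) gave a log2 fold change of 0.35 (SE 0.43, interval -0.62 to 1.33, adjusted p = 0.976, limma). It was -0.029 without LKO replicate 1 and -0.092 without control replicate 2. The interval leaves room for a Cyp4a14 level up to 2.52 times the control level or down to 0.649 of it, so 3 livers a group do not show that the gene was alike in both. The ratio of Cyp4a10 to Cyp4a14 ran from 1.13 to 2.05 in control livers and from 1.27 to 1.51 in LKO livers.

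Cyp4a31 and Cyp4a32 are close copies of Cyp4a10 whose own substrates are less well described. Cyp4a32 had 1875, 1939 and 1859 normalised reads in control livers and 2753, 2226 and 2087 in LKO livers. All LKO livers were above the control range, with replicate 1 highest. That control range was about as narrow as counting error alone allows. The means were 1891 ± 42.5 and 2355 ± 351 (SD, n = 3), a ratio of 1.25, and the log2 fold change of 0.31 (SE 0.098, interval 0.084 to 0.53) did not pass adjustment (adjusted p = 0.787, limma; 0.323, DESeq2). Without LKO replicate 1 it was 0.19. Cyp4a31 had 626, 461 and 572 normalised reads in control livers and 697, 517 and 551 in LKO livers, a log2 fold change of 0.088 (SE 0.15, interval -0.25 to 0.42). Its groups overlapped, and control replicate 2 was the lowest liver. Summed to 1 feature, Cyp4a10, Cyp4a31 and Cyp4a32 had a log2 fold change of 0.32 (SE 0.27, adjusted p = 0.971, limma).

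**Figure D2:**
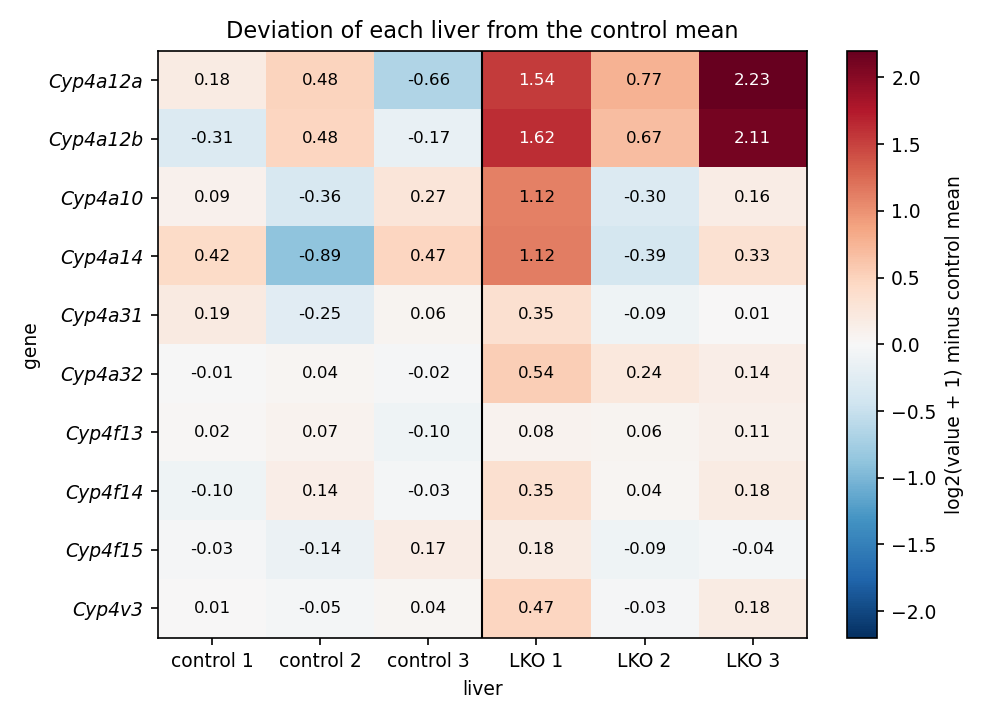
Deviation of each liver from the control mean of log2(value + 1), for each member (rows) and each liver (columns), with the value printed in each cell. Red is above and blue is below the control mean. LKO 1 is above it by 1.12 in both Cyp4a10 and Cyp4a14, and LKO 3 has the highest values of the Cyp4a12 pair, 2.23 and 2.11.

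The LKO livers therefore differed in which Cyp4a genes were high. LKO replicate 1 was the highest of the 6 livers for 7 members (Cyp4a10, Cyp4a14, Cyp4a31, Cyp4a32, Cyp4f14, Cyp4f15 and Cyp4v3). LKO replicate 3 was the highest for the other 3 (Cyp4a12a, Cyp4a12b and Cyp4f13), while its Cyp4a10 and Cyp4a14 values lay within the control range. Control replicate 2 was the lowest liver for Cyp4a10, Cyp4a14, Cyp4a31, Cyp4f15 and Cyp4v3, yet the highest control for both Cyp4a12 genes. The ratio of Cyp4a12a to Cyp4a10 was 0.668, 1.13 and 0.331 in control livers and 0.845, 1.31 and 2.62 in LKO livers. The Cyp4a12 pair made up 29.2%, 47.4% and 20.8% of the normalised reads of the 6 Cyp4a genes in control livers and 39.7%, 48.1% and 64.5% in LKO livers. These shares overlapped between the groups. The sum of the 6 Cyp4a genes was 34351, 28491 and 32919 in control livers and 72240, 33585 and 68661 in LKO livers, where replicate 2 stayed within the control range.

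**Figure D3:**
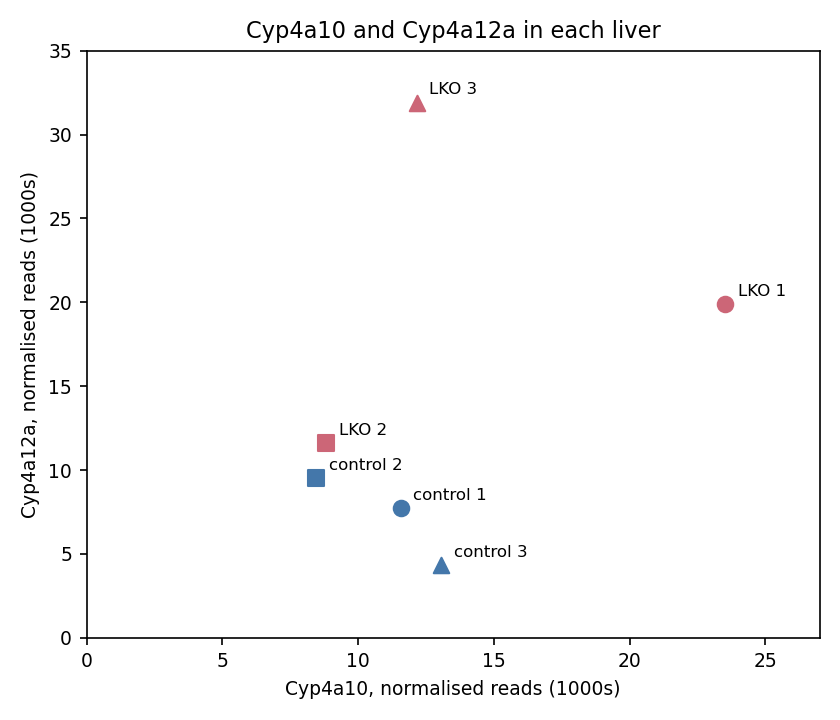
Cyp4a10 (horizontal axis) and Cyp4a12a (vertical axis) in each of the 6 livers, in units of 1000 normalised reads, with control livers in blue and Blnc1 LKO livers in red. Each point is 1 liver. LKO 1 is highest in Cyp4a10 (23522) and LKO 3 in Cyp4a12a (31905), while LKO 2 lies close to control 2 in both.

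The Cyp4f genes, which take eicosanoids such as leukotriene B4 among their substrates, had log2 fold changes from 0.016 to 0.19. Cyp4f14 had 9293, 10977 and 9741 normalised reads in control livers and 12693, 10287 and 11294 in LKO livers. LKO replicate 2 lay inside the control range and the other LKO livers lay above it. The means were 10003 ± 872 and 11425 ± 1208 (SD, n = 3), with a log2 fold change of 0.19 (SE 0.090, interval -0.016 to 0.40, adjusted p = 0.891, limma), and 0.11 without LKO replicate 1. Cyp4f13 had 4003, 4146 and 3681 normalised reads in control livers and 4175, 4111 and 4261 in LKO livers, and its log2 fold change was 0.086 (SE 0.059, interval -0.048 to 0.22), and 0.038 without control replicate 3. LKO replicate 2 was again the liver that reached into the control range. Cyp4f15 had 9508, 8854 and 10957 normalised reads in control livers and 11037, 9143 and 9459 in LKO livers, with a log2 fold change of 0.016 (SE 0.096). Here the groups overlapped widely, and the interval of 0.869 to 1.18 times the control level bounds the difference. The fold change of Cyp4f15 was below 0 when LKO replicate 1 (-0.066), control replicate 1 (-5.8e-04) or control replicate 2 (-0.052) was left out. The 3 Cyp4f genes together summed to 23720 ± 818 in control livers and 25487 ± 2220 in LKO livers (SD, n = 3), a ratio of 1.07.

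Cyp4v3 had 27019, 25975 and 27627 normalised reads in control livers and 37148, 26244 and 30364 in LKO livers. The 3 control livers were close to each other, LKO replicate 2 lay among them, and LKO replicates 1 and 3 were above. The means were 26874 ± 835 and 31252 ± 5506 (SD, n = 3), with a log2 fold change of 0.20 (SE 0.11, interval -0.056 to 0.46, adjusted p = 0.930, limma). It was 0.071 without LKO replicate 1 and 0.32 without LKO replicate 2.

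**Figure D4:**
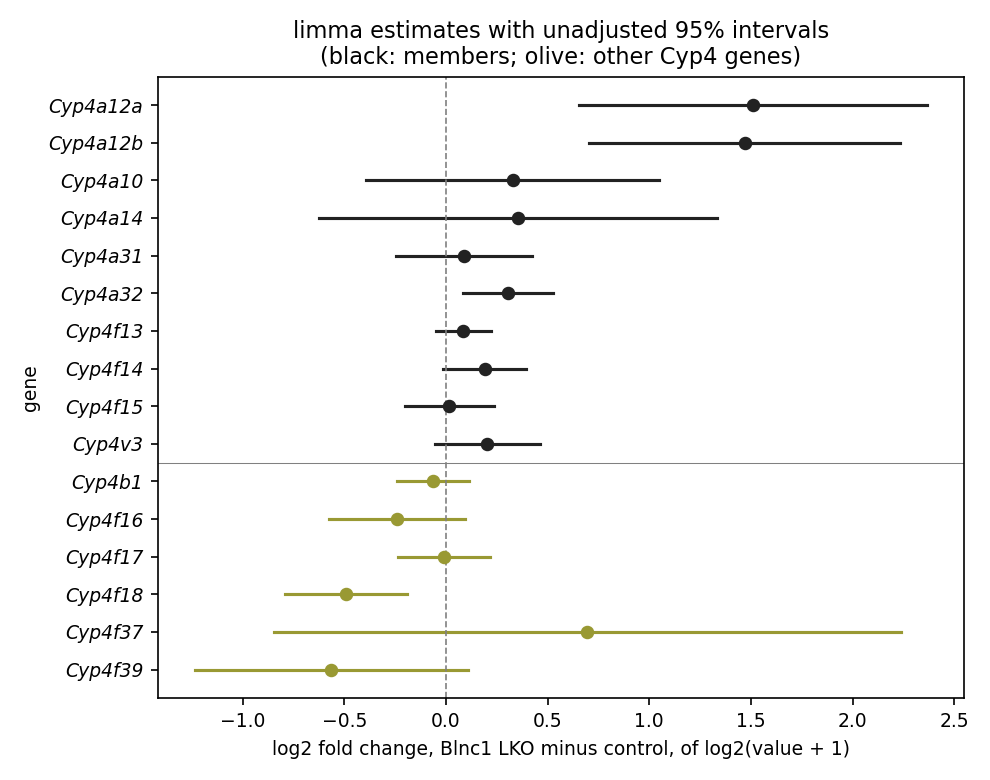
Log2 fold change of log2(value + 1), Blnc1 LKO minus control, for the 10 members (black) and the 6 other Cyp4 genes in the table (olive). Points are limma estimates and lines are unadjusted 95% intervals. The intervals of Cyp4a12a, Cyp4a12b and Cyp4a32 lie above 0, that of Cyp4f18 lies below it, and the others cross it.

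Levels of different genes were compared per kilobase of transcript. In control livers the order was led by Cyp4v3 (7057 ± 219 normalised reads per kilobase, SD, n = 3), whose livers were all above those of Cyp4a10 (5229 ± 1112). Cyp4a10, Cyp4f15 (4508 ± 496), Cyp4f14 (4504 ± 393), Cyp4a14 (3332 ± 1457), Cyp4a12a (2968 ± 1094) and Cyp4f13 (2251 ± 136) came next, and each overlapped its neighbour in this order. Cyp4a32 (1236 ± 27.8) and Cyp4a12b (1228 ± 376) overlapped each other and lay apart from Cyp4f13 above, and Cyp4a31 (220 ± 33.4) was apart from all. In LKO livers Cyp4a12a was first (8723 ± 4215), followed by Cyp4v3 (8207 ± 1446) and Cyp4a10 (7036 ± 3652), and these 3 overlapped. Cyp4a12b was seventh with 3576 ± 1629. The LKO order among the other members kept Cyp4f14 (5144 ± 544) and Cyp4f15 (4557 ± 468) above Cyp4a14 (4282 ± 2190), with Cyp4f13 (2387 ± 43.1), Cyp4a32 (1539 ± 229) and Cyp4a31 (234 ± 38.3) last. The transcript annotated for Cyp4a32 holds 1530 bases and hardly any untranslated sequence, so its place in this order depends on that length. Cyp4f13 was divided by the 1752 bases of 1 transcript, while all its annotated exons cover 4441 bases. Over that longer length its level would be lower, so its place, also above Cyp4a32, depends on this choice. The same values were also divided by the number of 50-base windows that no other gene holds. This assumes that no shared read was counted, which is not known. Cyp4a12a was then below Cyp4a10 (7701 ± 1637) and Cyp4v3 (7689 ± 239) in control livers (5927 ± 2184 per 1000 windows), overlapping Cyp4v3. In LKO livers it stayed first (17416 ± 8417).

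**Figure D5:**
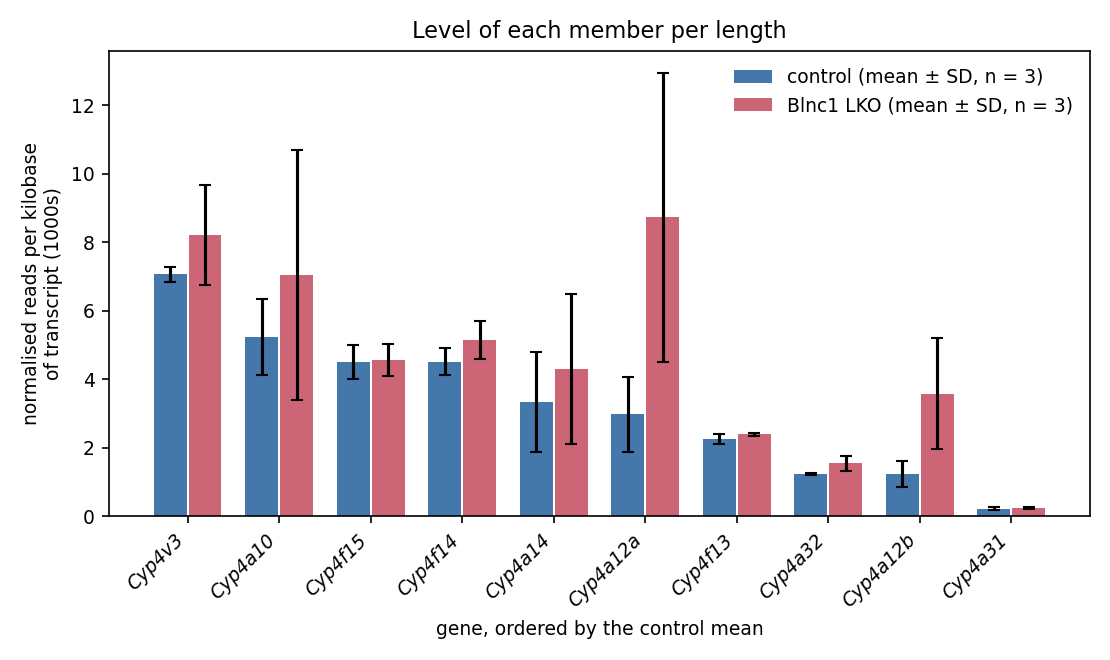
Level of each member in normalised reads per kilobase of transcript (in units of 1000, linear axis from 0), as mean ± SD (n = 3) in control livers (blue) and Blnc1 LKO livers (red), ordered by the control mean. Cyp4a12a is sixth in control livers (2968) and first in LKO livers (8723).

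The 10 members together held 0.111% ± 0.0044 of all normalised reads in control livers and 0.153% ± 0.032 in LKO livers (SD, n = 3). The share was above the controls in every LKO liver (0.176%, 0.117% and 0.166% against 0.106% to 0.114%), with LKO replicate 2 close to the control range. The sum of their normalised reads, 84175, 78444 and 84925 in control livers and 137292, 83370 and 124040 in LKO livers, overlapped between the groups at LKO replicate 2. That liver had the lowest total of all normalised reads, by which the share is divided (71386889, against 73998667 to 74733270 in control livers).

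Of the 10 other Cyp4 genes looked for, 6 were in the table (Cyp4b1, Cyp4f16, Cyp4f17, Cyp4f18, Cyp4f37 and Cyp4f39), with 5 lower and 1 higher in LKO livers and a median log2 fold change of -0.15. The higher one was Cyp4f37, at 0 to 5 reads a liver. Among the lower ones, Cyp4f17 (-0.0097, SE 0.10) and Cyp4b1 (-0.062, SE 0.077) had small differences. None of the 6 passed adjustment in limma, DESeq2 or edgeR. In Cyp4f18, a leukotriene B4 hydroxylase of neutrophils and other leukocytes, every LKO liver was below every control liver. It had 557, 483 and 619 normalised reads in control livers and 337, 440 and 403 in LKO livers, a log2 fold change of -0.49 (SE 0.13, adjusted p = 0.638, limma; 0.0944, DESeq2). Cyp4f39, an omega-hydroxylase of skin ceramide synthesis, was also below the controls in all LKO livers, from few reads (13 to 31 a liver). Cyp4f16 had a log2 fold change of -0.24 (SE 0.15), with overlapping groups.

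The enzymes that serve the omega-hydroxylases and those that act after them were read from fixed lists, and limma called no gene in any of them. Among 6 genes for electron donors and haem synthesis, 4 were higher and 2 lower, with a median log2 fold change of 0.02. The 3 with the smallest p were Pgrmc1, a haem-binding partner of P450 enzymes (0.12, SE 0.097), Cyb5a, the microsomal cytochrome b5 (0.09, SE 0.090), and Alas1, which catalyses the rate-limiting step of haem synthesis (-0.10, SE 0.11), all with overlapping groups. Of 19 genes of dicarboxylic acid formation and peroxisomal beta-oxidation, 9 were higher and 10 lower, with a median of -0.04. Adh4, an alcohol dehydrogenase that accepts omega-hydroxy fatty acids, was the single gene of this list without overlap. It lay above the controls, as 5.35% of all genes did, and 1 of 19 is near that share. It had 7850, 8223 and 8192 normalised reads in control livers and 11564, 8825 and 9638 in LKO livers (log2 fold change 0.30, SE 0.092, adjusted p = 0.767, limma). As in Cyp4a32, the control livers were close together and LKO replicate 1 was the highest.

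PPARα and its partners had log2 fold changes from -0.13 to 0.10. Ppara itself had 32795, 34226 and 31612 normalised reads in control livers and 37344, 33093 and 34174 in LKO livers, a log2 fold change of 0.084 (SE 0.068). Its groups overlapped, and LKO replicate 1 was the highest liver. Over the 10 genes of that list 7 were higher and 3 lower, with a median of 0.02. Of 24 PPARα target genes outside the Cyp4 family, 14 were higher and 10 lower, with a median of 0.01. Acot2, a mitochondrial acyl-CoA thioesterase, had 2068, 1788 and 2130 normalised reads in control livers and 1242, 1479 and 1529 in LKO livers (log2 fold change -0.50, SE 0.098). It did not pass in limma (adjusted p = 0.548) and passed in DESeq2 on the recovered reads (adjusted p = 0.0047). Eci2, a peroxisomal enoyl-CoA isomerase, was above the controls in every LKO liver (log2 fold change 0.21, SE 0.067), and Pdk4, a kinase that restrains pyruvate dehydrogenase, overlapped (-0.26, SE 0.12). The mean deviation of the 24 target genes from the control mean was 0.056, -0.10 and 0.030 on the log2 scale in the 3 LKO livers, against -0.032 to 0.020 in control livers.

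Cyp4a12a and Cyp4a12b belong to the genes that male livers express more than female livers, a group kept by pulses of growth hormone and by androgens. The other 20 male-biased genes looked at, with no member among them, all had higher means in LKO livers. Log2 fold changes ran from 0.29 to 4.10, with a median of 0.64. Mup7 had the 4.10, with overlapping groups (303, 5012 and 247 normalised reads in control and 93552, 3605 and 5664 in LKO livers). Of the 20, 15 had an unadjusted limma p under 0.05 with higher values in LKO livers, a mark that 2.94% of all genes reached. That count is a description, since the list was chosen with earlier results of these data known and its genes are regulated together. In 5 of the 20 (Mup20, Cyp2d9, Hsd3b5, Nudt7 and Gstp1) every LKO liver was above every control liver, as in 5.35% of all genes. None passed in limma, and Nudt7, a peroxisomal coenzyme A hydrolase, passed in DESeq2 (log2 fold change in limma 0.55, SE 0.12; adjusted p = 0.0050, DESeq2). Cyp2d9, a steroid 16α-hydroxylase, had 38942, 50722 and 29168 normalised reads in control livers and 66437, 56364 and 84894 in LKO livers. Its order of livers was that of Cyp4a12a in both groups. Hsd3b5, a steroid reductase of male liver, had 20.5, 120 and 16.0 normalised reads in control livers and 2568, 209 and 363 in LKO livers, where replicate 1 and not replicate 3 was highest. The mean deviation of the 20 genes from the control mean was -0.34, 0.57 and -0.22 on the log2 scale in control livers and 1.83, 0.55 and 1.07 in LKO livers. LKO replicate 2 was thus level with control replicate 2 on this list, and the groups overlapped.

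Of 19 female-biased genes in the table, 11 were higher and 8 lower in LKO livers, with a median of 0.07. Cyp17a1, which makes androgen precursors, was below the controls in every LKO liver (2724 ± 513 and 1227 ± 430 normalised reads, SD, n = 3; log2 fold change -1.19, SE 0.22, adjusted p = 0.523, limma). Cyp3a41a and Cyp3a44 were above the controls in every LKO liver, as 5.35% of all genes were, with Cyp3a44 at 4 to 31 reads a liver. Slc22a27 had a log2 fold change of -0.41 (SE 0.16), with overlapping groups. Of 11 growth hormone signalling genes, 7 were higher and 4 lower, with a median of 0.03. Stat5b, the transcription factor through which growth hormone pulses act, had 4033, 4050 and 4156 normalised reads in control livers and 3763, 3874 and 3899 in LKO livers (log2 fold change -0.085, SE 0.048). Its LKO livers were all below the controls by a small margin. Bcl6, a repressor of female-biased genes, had a log2 fold change of -0.52 (SE 0.20), and Onecut1 had 0.62 (SE 0.27), both with overlapping groups.

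Of 11 enzymes and receptors of leukotriene and arachidonic acid metabolism, which share substrates with the Cyp4a12 and Cyp4f enzymes, 3 were higher and 8 lower, with a median of -0.03. Ptgs2, the inducible cyclooxygenase, had 28.0, 29.8 and 38.3 normalised reads in control livers and 16.7, 16.9 and 23.4 in LKO livers, all below the controls but from 14 to 36 reads. Ephx2, the soluble epoxide hydrolase, had a log2 fold change of 0.23 (SE 0.098), and Ptgr1, a prostaglandin reductase that also inactivates leukotriene B4, had -0.16 (SE 0.098), both with overlapping groups.

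Likeness to 3 members was measured as the root mean square difference of log2(value + 1), centred on its mean over the 6 livers, among 12488 genes with a mean of at least 100. It is a description over 6 livers that share their depth and groups. Nearest to Cyp4a14, whose own spread was 0.647, were Etnppl (0.131), a phospholyase of ethanolamine phosphate, Hsd17b6 (0.193), an androgen-metabolising dehydrogenase, and the female-biased P450 gene Cyp2b9 (0.327). Among the members, Cyp4a10 was nearest to it (0.279, closer than Cyp2b9) and Cyp4a12a farthest (1.03). Nearest to Cyp4a12a, whose own spread was 0.930, were Cd300e (0.157), a receptor of myeloid cells, Asb2 (0.323), a subunit of an E3 ubiquitin ligase, and Susd4 (0.372), a complement inhibitor. Cyp4a12b came closer to it (0.289) than Asb2. Cd300e, like Cyp4a12a, was highest in LKO replicate 3 and lowest in control replicate 3, with 188, 231 and 131 normalised reads in control livers and 432, 325 and 833 in LKO livers. Nearest to Cyp4f14, with a spread of 0.148, were Gem (0.041), Hsd17b2 (0.041) and 3110056K07Rik (0.042).

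Markers of other liver cells were read in the same livers, and none of those tested was at 0 in any liver. Summed over each list, the range in control and LKO livers was 89541 to 95373 and 94111 to 100205 normalised reads for 11 macrophage markers, and 109830 to 122686 and 90334 to 110372 for 10 stellate cell markers. It was 32111 to 34151 and 31375 to 31910 for 9 endothelial markers, the only list in which every LKO liver lay below the controls. For 6 cholangiocyte markers it was 59856 to 71742 and 47410 to 71586. Most of that sum was Spp1 alone (57143 to 67487 and 44457 to 67562), so it reads little more than 1 gene. For 8 lymphocyte and neutrophil markers the range was 1825 to 2437 and 1636 to 5179. The highest of these last sums came from LKO replicate 3, the liver with the highest Cyp4a12a, in which the neutrophil gene S100a9 had 2326 normalised reads against 222 to 470 in the other livers. Of the 8 genes of that list 4 were higher and 4 lower in LKO livers, with Cd3e (log2 fold change -0.29, SE 0.16) and Nkg7 (-0.38, SE 0.25) among the lower ones and no gene passing in limma or DESeq2. Marco, a scavenger receptor of macrophages, had 32.6, 87.4 and 23.4 normalised reads in control livers and 794, 95.8 and 509 in LKO livers, so that replicate 2 was near the controls here too. Marco was the extreme of its list, in which 8 of 11 markers were higher and 3 lower in LKO livers, with a median log2 fold change of 0.12 and none passing in limma or DESeq2. In the stellate list 9 of 10 markers were lower and 1 higher, with a median log2 fold change of -0.23. In 4 of them (Col1a1, Col1a2, Col3a1 and Acta2) every LKO liver was below the controls, as in 5.28% of all genes. These 4 passed in DESeq2, with adjusted p from 0.0046 (Col1a1) to 0.025 (Col3a1). None passed in limma, where Col1a1 had a log2 fold change of -0.61 (SE 0.14, adjusted p = 0.548). The part of these cells in the Cyp4 values was not tested.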

How the data were processed

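RNA from 6 livers (3 control, 3 Blnc1 LKO) was analysed from 1 table of the whole series. Per the submitters' processing notes, reads were checked with FastQC, aligned to mm10 with STAR, counted per gene with HTSeq and scaled with DESeq2. Versions, gene annotation and strand setting are not given in the sources used here. The signal the authors deposited is the read count of a gene after division by the size factor of its liver. Columns named WT and KO with a number were matched to control and LKO livers of that number, and 0 columns were left unused. Every value was a whole multiple of 1 read (tolerance 0.01 read), so the reads were recovered.

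From these values, limma 3.58.1 in R 4.3.3 (lmFit, eBayes with a trend) was fitted to log2(value + 1) over 17297 genes, without covariates, two-sided, with an adjusted p threshold of 0.05. edgeR 4.0.16 (quasi-likelihood), DESeq2 1.42.0 and voom on the recovered reads were alternatives, with a pseudocount of 0.1, other filters, library-size scaling, a replicate block, near-identical members summed and each liver left out. The fits were tested on simulated counts. An exact permutation test of 3 against 3 livers cannot go below p = 0.1. All members are named, with up to 3 genes of smallest unadjusted p from each other list and the 3 nearest genes to Cyp4a14, Cyp4a12a and Cyp4f14. Genes named beside these, as the ones of a list without overlap or missing from the table, were picked once their values had been seen. The members and lists were chosen with earlier results of these data known. Transcripts and coding sequences came from GENCODE M21 (GRCm38), and identity was counted over pairwise global alignments in Biopython 1.88.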

Additional observations from a re-analysis of the deposited data

How the results depend on the processing

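No member passed an adjusted p under 0.05 under any of the alternatives run. Of 152 member values under alternatives, 144 kept their direction and 8 were reversed, each when 1 liver was left out. Without LKO replicate 1 the log2 fold change was -0.066 for Cyp4a10, -0.029 for Cyp4a14, -0.040 for Cyp4a31 and -0.066 for Cyp4f15. Without control replicate 2 it was -0.092 for Cyp4a14, -0.036 for Cyp4a31 and -0.052 for Cyp4f15, and without control replicate 1 it was -5.8e-04 for Cyp4f15. The highest values with a liver left out were 0.64 for Cyp4a10 and 0.72 for Cyp4a14 (without LKO replicate 2), 0.18 for Cyp4a31 (without control replicate 1) and 0.10 for Cyp4f15 (without control replicate 3). Members without overlap numbered 3 to 6 when a liver was left out (8.84% to 14.7% of all genes were then above the controls in the same way), against 3 with all livers. Genes called over the whole table numbered 84 with DESeq2, 2 with edgeR, 2 with no filter on low values, and 0 to 13 when a liver was left out (13 without LKO replicate 2, 3 without control replicate 2, 0 without control replicate 1), against 1. Fewer livers and genes tested differ by construction, and the cause of the other differences was not tested. Library-size scaling moved the median of all genes by less than 0.01. Summing near-identical members gave 1.49 for the Cyp4a12 pair and 0.32 for Cyp4a10, Cyp4a31 and Cyp4a32, with no call. How reads shared by these genes were counted is not given in the sources used here.

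A replicate block (the number as a factor) left 0 genes called by limma or edgeR, and no member passed. Of the 17297 genes tested, 912 in limma and 898 in edgeR had an unadjusted p under 0.05 in either direction, against 983 in limma without the block. Cyp4a12a, Cyp4a12b, Cyp4a14 and Cyp4a32 were among them with the block. For Cyp4a14 the unadjusted limma p was 0.043 with the block and 0.43 without it. The numbers did not pair the livers: deviations from the group means correlated at -0.080, -0.0055 and -0.12 between livers of the same number, against -0.026 to 0.11 in other pairs.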
